A study of Mus musculus with 9 samples.

Results

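The transcriptome of mouse embryonic stem (ES) cells labelled as overexpressing LAMP2A and given dimethyl α-ketoglutarate (DM-αKG) was compared with that of vector control cells. The comparison takes 6 of the 9 RNA sequencing libraries of the series, 3 labelled LAMP2A+DM-αKG and 3 labelled VT, chosen by their treatment labels. All groups are D3 cells, a mouse ES cell line, kept feeder-free on gelatin in medium with fetal bovine serum and leukemia inhibitory factor (LIF). VT cells stably carry the empty pCDH vector. LAMP2A+DM-αKG cells are labelled as overexpressing LAMP2A and received DM-αKG at 4 mM for 72 h. The other 3 libraries are LAMP2A cells without DM-αKG. Vector cells given DM-αKG are not among the groups, so the effects of LAMP2A and of DM-αKG cannot be told apart in this comparison. The labels do not tell whether a group's libraries are separate cultures or clones. A p-value here therefore covers no more than the spread of these samples, and that spread may be technical.

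α-Ketoglutarate, also called 2-oxoglutarate, is an intermediate of the tricarboxylic acid (TCA) cycle and the co-substrate of the 2-oxoglutarate dioxygenases. These enzymes include the prolyl hydroxylases that mark hypoxia-inducible factor (HIF) for degradation, the collagen hydroxylases, the TET enzymes that oxidise methylated cytosine, and the Jumonji histone demethylases. DM-αKG is an ester that crosses the cell membrane and releases α-ketoglutarate. Chaperone-mediated autophagy delivers cytosolic proteins bound by HSC70 to the lysosome, and LAMP2A, 1 of the splice forms of LAMP2, is its receptor there. In mouse ES cells α-ketoglutarate is known for supporting self-renewal.

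The 6 libraries held 23636074 to 29935663 counted reads. Within a group, log2 CPM (a gene's count relative to the normalised library total) correlated at 0.994 to 0.996 across genes, and between VT and LAMP2A+DM-αKG at 0.982 to 0.984. The leading principal component of the 6 libraries held 66.8% of their variance and separated both groups. The summed level of 10 ES cell markers was 8535 to 9040 CPM in VT, 6930 to 6977 CPM in LAMP2A+DM-αKG and 2135 to 2140 CPM in untreated LAMP2A. Both groups compared here therefore had the markers of ES cells. Of 5 blood cell markers, Hba-a1 and Tyrobp had no count in these 6 libraries and Ptprc and Cd52 had 1 or 2 counts a group. The fifth, Laptm5, a lysosomal membrane protein gene, had 19257 counts in VT and 18011 in LAMP2A+DM-αKG and made up nearly all of the list's sum.

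Lamp2 was measured at 57.5, 56.9 and 60.03 CPM in the VT libraries and at 99.3, 95.4 and 96.9 CPM in the LAMP2A+DM-αKG libraries. Every treated library was above every VT library, and the mean was 1.67-fold higher (log2 fold change 0.74, SE 0.035; adjusted p = 4.5e-19, edgeR quasi-likelihood test with Benjamini-Hochberg adjustment). Untreated LAMP2A libraries held 404 ± 2.24 CPM (SD, n = 3). The Lamp2 level of the treated libraries was thus far nearer to VT than to the untreated LAMP2A group whose transgene their label names. Over all genes too, the treated libraries correlated less with untreated LAMP2A (0.887 to 0.891) than with VT. Whether the treated cells still carried or expressed the transgene as labelled was not tested. Lamp2 lies on chromosome X, 38401357–38456454 of mm10. A count per gene does not tell its splice forms apart, nor endogenous from introduced Lamp2.

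Pou5f1, which encodes the pluripotency factor OCT4 (chromosome 17, 35506018–35510772), had 1415, 1457 and 1286 CPM in VT and 974, 978 and 988 CPM in LAMP2A+DM-αKG. It fell by 0.50 on the log2 scale (SE 0.033; adjusted p = 7.6e-15, edgeR). Nanog (chromosome 6, 122707489–122714633) had 974, 1020.5 and 1005 CPM in VT against 899.98, 922 and 920.1 CPM, a log2 fold change of -0.13 (SE 0.028). Sox2 (chromosome 3, 34650405–34652461) changed least of these factors, at 431 ± 12.6 CPM in VT against 398 ± 9.51 CPM in treated libraries (SD, n = 3), a log2 fold change of -0.12 (SE 0.029). All 3 were lower in each treated library than in each VT library, by small amounts for Nanog and Sox2. In untreated LAMP2A the levels were 323 CPM for Pou5f1, 269.6 CPM for Nanog and 231 CPM for Sox2.

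**Figure D1:**
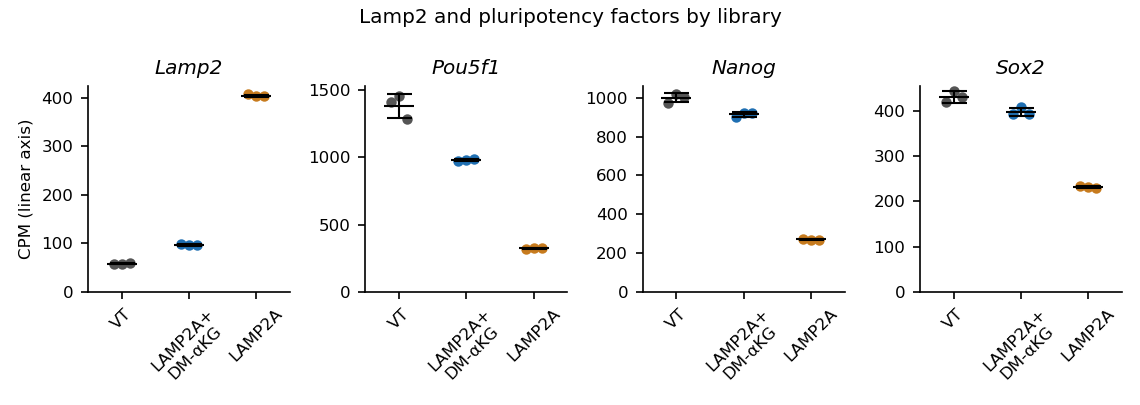
Level of Lamp2, Pou5f1, Nanog and Sox2 in each library (points; linear CPM axis from 0) with the mean and SD of each group of 3 (bars). LAMP2A+DM-αKG libraries lie above VT for Lamp2 and below VT for the pluripotency factors, and untreated LAMP2A libraries lie far from both.

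Most genes that differed did so by little. Of 14513 genes tested, 8517 passed at an adjusted p under 0.05 with the quasi-likelihood test of edgeR, or 58.7%. Of these, 4258 were higher in LAMP2A+DM-αKG (29.3% of the tested genes) and 4259 lower (29.3%). The spread between libraries was small, with a common biological coefficient of variation of 2.74%, and 6358 of the 8517 genes (74.7%) changed by under 1.5-fold. A change of at least 2-fold was reached by 570 genes that were higher (3.93%) and 381 that were lower (2.63%). Low levels made up most of these: only 128 of the 570 and 122 of the 381 averaged 5 CPM or more across both groups. The median log2 fold change over all tested genes was 0.00.

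**Figure D2:**
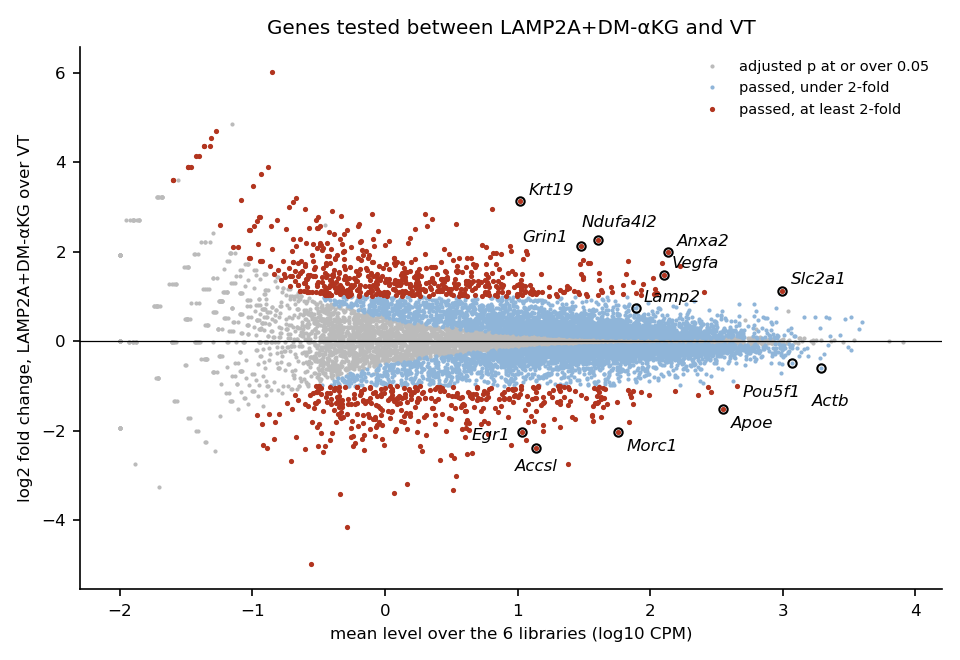
Log2 fold change of LAMP2A+DM-αKG over VT (vertical) against the mean level of a gene over the 6 libraries (horizontal, log10 CPM), 1 point per tested gene. Genes of at least 2-fold change (red) lie mostly at low levels; the circled genes are named in the text.

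Krt19 had the largest rise among genes that averaged 5 CPM or more. This gene, a keratin of simple epithelia (chromosome 11, 100140810–100148665), had 2.304, 2.07 and 2.01 CPM in VT and 19.98, 18.4 and 17.6 CPM in LAMP2A+DM-αKG. That was 8.75-fold higher (log2 fold change 3.13, SE 0.093; adjusted p = 1.4e-24, edgeR). Untreated LAMP2A libraries had 71.6 ± 1.897 CPM of Krt19, above both groups. Hpse, the heparanase that cleaves heparan sulfate, rose 7.71-fold from 1.48 ± 0.237 to 11.3 ± 0.802 CPM. Anxa2, a membrane-binding annexin, had 57.02, 58.3 and 51.1 CPM in VT and 219.6, 219 and 219.8 CPM in treated cells, a 3.96-fold rise (SE of the log2 value 0.037). Tinagl1, a matricellular protein gene, and Greb1l rose 4.04-fold and 3.92-fold. The transcription factor gene Gata6, which directs primitive endoderm, rose 3.92-fold from 2.81 to 11.1 CPM. For Krt19, Anxa2, Tinagl1, Gata6 and Greb1l the untreated LAMP2A level was higher still.

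Other genes of the top 12 were not highest in untreated LAMP2A. Ndufa4l2, a mitochondrial protein gene that is a known HIF-1 target (chromosome 10, 127514967–127517154), had 14.2, 14.2 and 13.4 CPM in VT and 67.4, 65.4 and 68.4 CPM in LAMP2A+DM-αKG, against 5.202 ± 0.147 CPM in untreated LAMP2A. Its rise over VT was 4.82-fold (log2 fold change 2.27, SE 0.049; adjusted p = 1.8e-28, edgeR). Grin1, the obligatory subunit of NMDA-type glutamate receptors (chromosome 2, 25291181–25319187), had 12.96, 11.1 and 9.74 CPM in VT and 50.8, 47.1 and 48.6 CPM in treated cells, and 1.14 ± 0.144 CPM in untreated LAMP2A. Treated libraries thus stood above both other groups for these genes. Pygl, the liver form of glycogen phosphorylase, rose 4.42-fold. Ppp1r3b, which targets protein phosphatase 1 to glycogen, rose 4.36-fold. The glycosyltransferase gene B4galnt2 and the T-type calcium channel gene Cacna1h rose 4.31-fold and 4.06-fold.

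Among the largest falls was Morc1 (chromosome 16, 48431237–48630900), a germ cell gene whose protein silences transposons. It had 88.3, 91.5 and 97.4 CPM in VT and 22.2, 23.03 and 22.7 CPM in LAMP2A+DM-αKG, a 4.09-fold fall (log2 fold change -2.03, SE 0.046; adjusted p = 6.3e-28, edgeR). Egr1, an immediate early transcription factor gene of growth factor signalling (chromosome 18, 34859823–34864984), had 16.99, 17.5 and 17.4 CPM in VT and 4.29, 3.54 and 4.79 CPM in treated cells. Untreated LAMP2A had 11.7 CPM of Egr1, between both groups. Smyd1, a methyltransferase of striated muscle, fell 4.64-fold from 18.95 ± 0.806 to 4.08 ± 0.301 CPM, while untreated LAMP2A held 21.7 CPM. LOC105246506, a locus without a name in the table, fell 6.76-fold, Accsl 5.23-fold and Spata31d1b 4.99-fold. The inhibitory Fc receptor gene Fcgr2b, the zinc finger gene Zmat4, the fast-muscle actinin gene Actn3, the ketone body dehydrogenase gene Bdh2, the melanosome gene Pmel and the inositol transporter gene Slc5a11 fell 3.53-fold to 4.19-fold. Of these largest falls all but Smyd1 were also lower in untreated LAMP2A than in VT. Morc1 stood at 11.5 CPM there, Accsl at 1.23 CPM and Zmat4 at 7.85 CPM.

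In CPM, a scale that is not divided by gene length, genes were also ranked by their gain or loss. Slc2a3, a glucose transporter gene, gained most, from 2685 ± 10.3 to 3901 ± 5.62 CPM (1.45-fold). Then came Pkm, Aldoa, Ldha, Hsp90b1, Slc2a1, the elongation factor gene Eef2 and Hspa5. Eef2 rose by little in relation to its level, 1.21-fold. The largest loss was that of Actb, cytoplasmic β-actin, often used as a reference gene. It had 2342, 2376 and 2264 CPM in VT and 1543, 1538 and 1521 CPM in LAMP2A+DM-αKG, a 1.52-fold fall (log2 fold change -0.60, SE 0.028), and 3266 CPM in untreated LAMP2A. The other large losses were Trim28, the corepressor of KRAB zinc finger proteins (1.295-fold), L1td1, an RNA-binding protein gene of pluripotent cells (1.65-fold), the nucleolin gene Ncl, the importin gene Ipo5, Pou5f1, the stress granule gene G3bp2 and the prothymosin gene Ptma.

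Gene lists by function were described by counts and medians, beside the values of all tested genes given above (29.3% higher, 29.3% lower, median 0.00). The lists share some genes. The filter on low counts used all 9 libraries, so some members were tested only through their level in untreated LAMP2A. With only the 6 libraries compared, 4117 of 13622 genes were higher and 3910 lower. Targets of HIF stood highest by median.

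**Figure D3:**
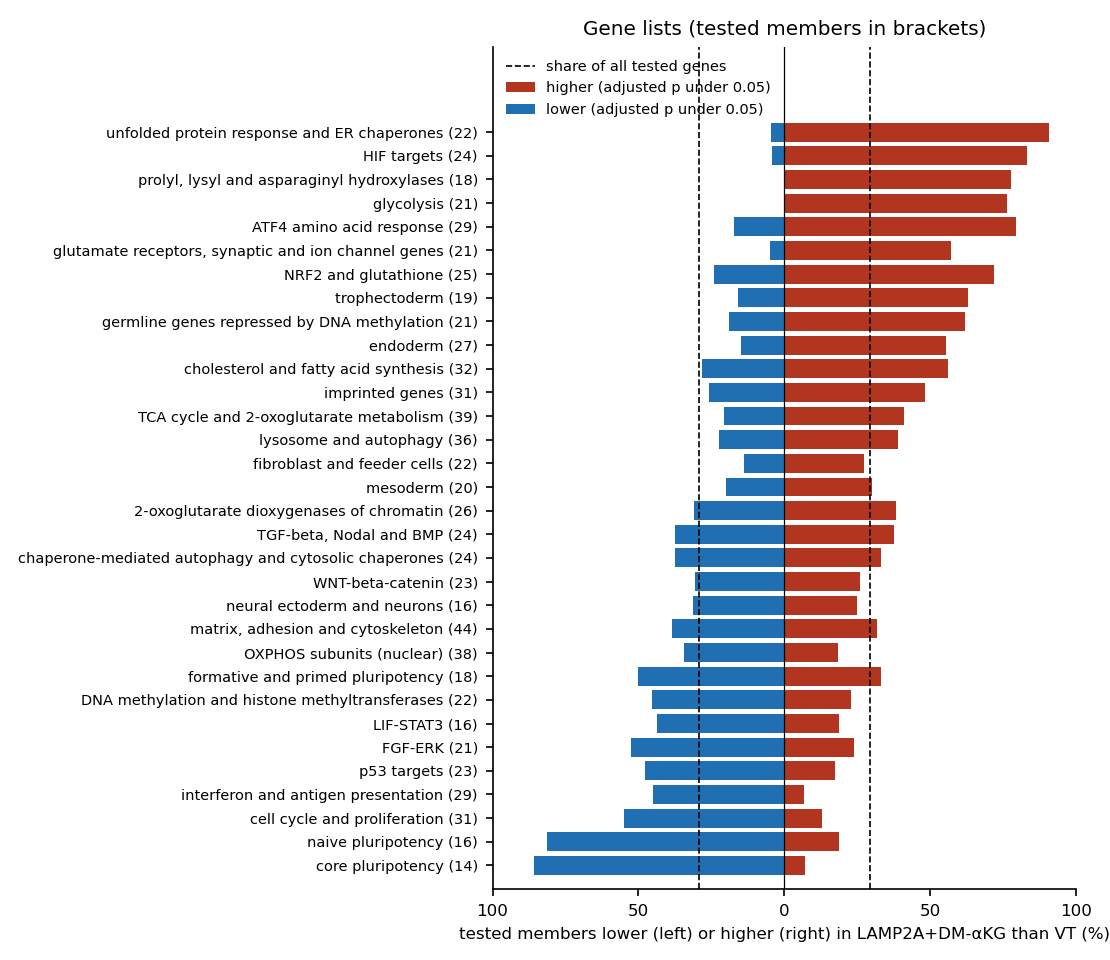
Share of the tested members of each list that were higher (right) or lower (left) in LAMP2A+DM-αKG than in VT, ordered by the difference of both shares, with the share of all tested genes (dashed, 29.3% on either side). ER, HIF, hydroxylase and glycolysis lists lie furthest toward higher, and the core and naive pluripotency lists furthest toward lower.

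HIF is a transcription factor of low oxygen that binds the core letters ACGTG or GCGTG. Of 24 listed targets, all tested, 20 were higher in LAMP2A+DM-αKG (29.3% of all tested genes were), 15 of them at least 2-fold (3.93% of all tested genes), 1 was lower, and 3 did not pass. The median log2 fold change was 1.15. The promoters of Bnip3 and P4ha2 are shown because both genes rose and hold the core letters. Each is 250 bases before a start of the gene in RefSeq (build GRCm38.p6), written 5′ to 3′ in the direction of the gene. The core letters on either strand are in capitals. RefSeq starts can differ from the GENCODE gene positions given in the text, and the P4ha2 window lies within the GENCODE span of P4ha2. They lie at chr7:138909507-138909756 (minus strand) for Bnip3 and chr11:54100674-54100923 (plus strand) for P4ha2.
Bnip3: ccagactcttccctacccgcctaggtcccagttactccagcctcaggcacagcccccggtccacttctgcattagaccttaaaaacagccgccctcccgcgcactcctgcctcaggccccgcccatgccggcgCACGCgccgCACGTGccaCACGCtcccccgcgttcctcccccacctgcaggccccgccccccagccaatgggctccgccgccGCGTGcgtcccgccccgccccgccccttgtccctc
P4ha2: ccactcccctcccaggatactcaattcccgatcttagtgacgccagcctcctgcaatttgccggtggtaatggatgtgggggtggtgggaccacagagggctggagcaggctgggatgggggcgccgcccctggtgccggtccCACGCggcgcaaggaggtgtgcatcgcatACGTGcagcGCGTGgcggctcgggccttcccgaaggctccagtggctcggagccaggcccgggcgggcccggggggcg
Among all 32851 RefSeq promoters of this length 38.6% hold the core letters on either strand, and among the 13899 promoters of tested genes 54.6%. RefSeq promoters were found for 18 of the 24 targets, and 17 of these genes hold the letters (22 of 27 promoters, 81.5%). A match is a description of the letters in this window, not a binding site.

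Vegfa, the angiogenic growth factor (chromosome 17, 46016993–46032369), had 67.2, 65.7 and 65.9 CPM in VT and 188, 184 and 186 CPM in LAMP2A+DM-αKG. Its rise was 2.804-fold (log2 fold change 1.49, SE 0.033; adjusted p = 2.1e-28, edgeR), and untreated LAMP2A had 105 ± 1.94 CPM. Bnip3, a mitophagy receptor gene (chromosome 7, 138890836–138909519), had 53.9, 59.2 and 58.1 CPM in VT and 150.4, 157 and 149.7 CPM in treated libraries, a 2.67-fold rise (SE of the log2 value 0.038). Its level in untreated LAMP2A, 62.3 ± 2.07 CPM, was close to VT. Ndrg1, a stress-response gene, rose 3.36-fold from 15.6 ± 0.771 to 52.6 ± 1.41 CPM, with 19.6 CPM in untreated LAMP2A. For each of these genes the treated libraries lay above all other libraries of the series.

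Regulators of mTORC1, glycolysis and transcription among the targets also rose. Ddit4, an inhibitor of mTORC1, rose 2.396-fold to 88.5 CPM, and Pfkfb3, which makes the glycolytic activator fructose 2,6-bisphosphate, rose 2.42-fold to 124 CPM. In untreated LAMP2A both were about as high or higher, 113 and 116 CPM. Bhlhe40, a repressor of transcription, rose 2.12-fold and the mitochondrial adenylate kinase gene Ak4 rose by 0.76 on the log2 scale. Their untreated LAMP2A levels, 43.99 and 64.7 CPM, were below VT. Stc2, a secreted glycoprotein gene, rose 2.83-fold, Ero1l, an oxidase of the endoplasmic reticulum (ER), rose by 1.05 on the log2 scale, and Higd1a, a respiratory chain assembly factor, by 0.65.

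The targets that did not pass were Car9 at 0.845 ± 0.335 and 0.552 ± 0.0458 CPM, Pfkfb4 at 6.61 ± 0.319 and 7.23 ± 0.623 CPM, and Lox, with 1 count in VT and 6 in LAMP2A+DM-αKG. Without VT replicate 3, Car9 passed as lower (log2 fold change -0.90).

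**Figure D4:**
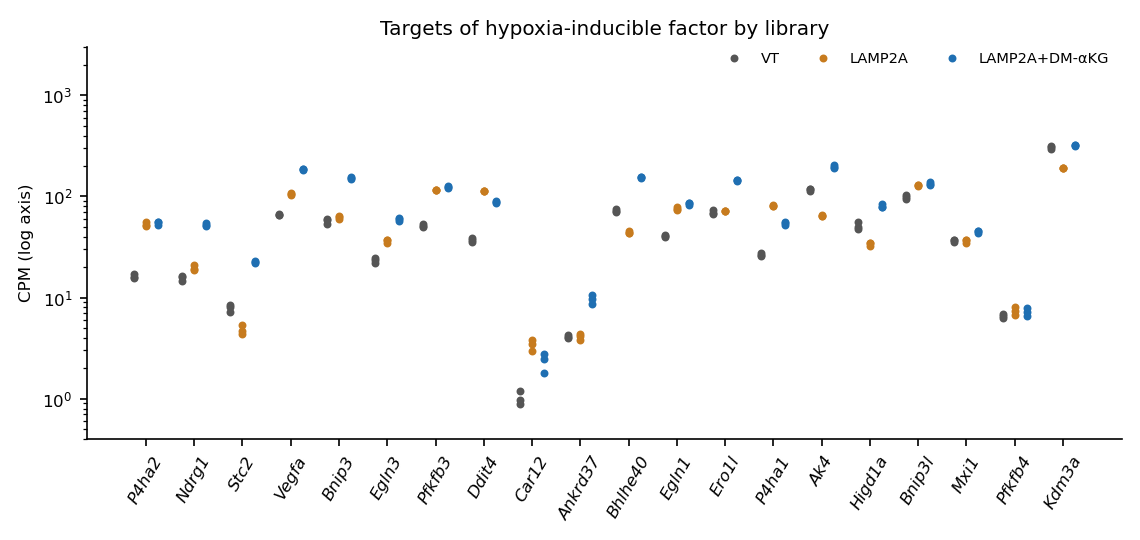
CPM (log axis) of each library for the HIF targets drawn, which averaged 1 CPM or more in both groups together, ordered by log2 fold change. For most genes the LAMP2A+DM-αKG libraries lie above VT, and untreated LAMP2A libraries lie on either side.

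Genes of a list of hydroxylases that use α-ketoglutarate and related genes, most but not all acting on proteins, were mostly higher. Of 18 tested genes 14 were higher and 0 lower, with a median log2 fold change of 0.55. The filter was passed only through untreated LAMP2A by 2 of the 18. With only the 6 libraries compared, 12 of 16 were higher and 0 lower (median 0.46). The list shares 4 genes with the HIF targets. Without them 10 of 14 were higher, with a median of 0.32. Without VT replicate 3, 1 gene of the list passed as lower. Egln3 and Egln1 encode the prolyl hydroxylases that act on HIF, and their genes are HIF targets themselves. Egln3 (chromosome 12, 54178981–54203860) had 22.2, 24.4 and 23.3 CPM in VT and 57.3, 59.7 and 61.9 CPM in LAMP2A+DM-αKG, a 2.56-fold rise (log2 fold change 1.36, SE 0.048). Egln1 rose 2.08-fold from 40.6 ± 0.610 to 84.4 ± 1.898 CPM. P4ha2 and P4ha1 are catalytic subunits of collagen prolyl 4-hydroxylase. P4ha2 (chromosome 11, 54100095–54131665) had 16.95, 15.8 and 15.9 CPM in VT and 55.95, 55.5 and 52.2 CPM in treated libraries, a 3.37-fold rise (adjusted p = 6e-25, edgeR), and 53.1 CPM in untreated LAMP2A. P4ha1 rose 2.03-fold. The lysyl hydroxylase gene Plod2 rose by 0.71 on the log2 scale and the aspartyl hydroxylase gene Asph by 0.53.

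Glycolysis genes were mostly higher, with a smaller median than the HIF targets. Of 21 tested, 16 were higher, 3 of them at least 2-fold, 0 were lower and 5 did not pass, with a median log2 fold change of 0.50. Slc2a1, the glucose transporter GLUT1 (chromosome 4, 119108711–119137983), had 626, 637 and 603 CPM in VT and 1369, 1346 and 1366 CPM in LAMP2A+DM-αKG. It rose 2.19-fold (SE of the log2 value 0.029; adjusted p = 2.7e-26, edgeR) and stood at 1205 CPM in untreated LAMP2A. Hk1, a hexokinase gene, had 56.03, 50.99 and 51.8 CPM in VT and 119, 115 and 117 CPM in treated libraries, a 2.21-fold rise, against 37.2 CPM in untreated LAMP2A. The aldolase gene Aldoc rose 2.01-fold, the lactate exporter gene Slc16a3 1.86-fold, the phosphoglycerate kinase gene Pgk1 1.79-fold, the phosphoglucose isomerase gene Gpi1 1.68-fold and the phosphofructokinase gene Pfkl 1.58-fold. Ldha, lactate dehydrogenase A, had 1866, 1927 and 1723 CPM in VT and 2617, 2601 and 2617 CPM in treated libraries (1.42-fold). Aldoa, Pkm and Gapdh, of the same pathway, rose by 0.49, 0.42 and 0.30 on the log2 scale. These last genes were all lower in untreated LAMP2A than in VT, at 1199.9, 1733, 2256 and 1204 CPM in the same order. The hexokinase gene Hk2 (733 ± 17.1 and 744 ± 9.75 CPM) and the kinase gene Pdk1, which inhibits pyruvate dehydrogenase (329.7 ± 2.13 and 325 ± 3.52 CPM), overlapped between the groups. Without VT replicate 3, 1 glycolysis gene passed as lower.

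The ER chaperones and components of the unfolded protein response were mostly higher, by small amounts. Of 22 tested genes 20 were higher, 1 was lower and 1 did not pass, with a median log2 fold change of 0.44, but only 1 reached 2-fold. The promoters of Hspa5, Hsp90b1 and Derl3 are shown because each holds the ER stress response element, which is bound with NF-Y by the factors of this response. The letters searched were CCAAT and CCACG with any 9 bases between them, on either strand, in capitals here with those bases, and the windows were made as above. They lie at chr2:34771840-34772089 (plus strand), chr10:86705445-86705694 (minus strand) and chr10:75893148-75893397 (plus strand) in that order.
Hspa5: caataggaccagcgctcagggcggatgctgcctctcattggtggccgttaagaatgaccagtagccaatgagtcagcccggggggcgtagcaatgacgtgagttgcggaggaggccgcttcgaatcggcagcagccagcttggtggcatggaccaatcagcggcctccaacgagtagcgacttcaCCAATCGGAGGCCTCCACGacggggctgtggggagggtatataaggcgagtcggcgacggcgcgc
Hsp90b1: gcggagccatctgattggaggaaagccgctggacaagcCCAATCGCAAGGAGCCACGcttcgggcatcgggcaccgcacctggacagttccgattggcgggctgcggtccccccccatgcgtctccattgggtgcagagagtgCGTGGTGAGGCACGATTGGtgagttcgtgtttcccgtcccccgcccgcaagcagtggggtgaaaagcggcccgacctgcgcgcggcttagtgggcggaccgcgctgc
Derl3: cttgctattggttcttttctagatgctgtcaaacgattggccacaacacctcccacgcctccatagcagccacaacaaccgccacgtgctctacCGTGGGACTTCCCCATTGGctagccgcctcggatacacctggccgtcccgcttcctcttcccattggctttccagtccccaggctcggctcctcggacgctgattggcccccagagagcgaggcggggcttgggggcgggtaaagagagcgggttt
Of all 32851 promoters 37 hold these letters (0.113%), and of those of tested genes 0.115%. Promoters were found for 18 of the 22 listed genes, and 9 of them hold the letters.

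Derl3, a channel component of ER-associated degradation (chromosome 10, 75893413–75895941), had 28.1, 27.6 and 24.9 CPM in VT and 58.4, 58.8 and 59.6 CPM in LAMP2A+DM-αKG. Its rise was 2.196-fold (log2 fold change 1.14, SE 0.046; adjusted p = 5.9e-21, edgeR), and untreated LAMP2A held 19.5 CPM. Hspa5, the chaperone BiP (chromosome 2, 34771970–34777547), had 1385, 1471 and 1407 CPM in VT and 2045, 2115 and 2083 CPM in treated libraries (1.46-fold). Hsp90b1, the ER form of HSP90, rose 1.44-fold and the ER chaperone gene Hyou1 1.47-fold. The disulfide isomerase gene Pdia6 and the secreted factor gene Manf rose by 0.51 and 0.44 on the log2 scale, and the lectin chaperone gene Calr by 0.28. Xbp1, a transcription factor of the same response, went the other way, from 153 ± 4.46 to 125 ± 2.28 CPM (log2 fold change -0.30, SE 0.032). Counts per gene do not show the splicing that activates Xbp1.

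Targets of ATF4, the factor of the amino acid and integrated stress response, were mostly higher as well. Of 29 tested, 23 were higher, 5 lower and 1, Psph, did not pass, with a median log2 fold change of 0.46. Atf5, a transcription factor of the mitochondrial stress response (chromosome 7, 44812256–44816658), had 44.8, 42.3 and 39.3 CPM in VT and 105, 108 and 104 CPM in LAMP2A+DM-αKG, a 2.502-fold rise (SE of the log2 value 0.040). Phgdh, which opens serine synthesis, rose 1.82-fold. Vldlr, a lipoprotein receptor gene, rose 3.83-fold from 4.92 ± 0.557 to 18.8 ± 1.01 CPM. The mitochondrial folate enzyme genes Aldh1l2 and Shmt2 rose by 1.62 and 0.48 on the log2 scale, the gluconeogenic gene Pck2 by 0.68 and the stress factor gene Ddit3 by 0.64. The 5 lower genes were Slc7a3, a cationic amino acid transporter gene (log2 fold change -0.61), Cth, which makes cysteine (-0.30), Sesn2, Slc38a2 and Chac1. The letters TGATGNAA, part of the ATF4 site, were in 7 of the 30 promoters found for the list (23.3%), against 3.45% of all promoters and 1.94% of those of tested genes.

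The antioxidant list of NRF2 targets and glutathione genes had 18 of 25 members higher and 6 lower, with a median log2 fold change of 0.22. Me1, which makes NADPH from malate, rose 2.07-fold and Gsr, glutathione reductase, 1.44-fold. Gpx4, which reduces lipid peroxides, rose 1.37-fold. Sod2, the mitochondrial superoxide dismutase, fell 1.38-fold. Cholesterol and fatty acid synthesis had 18 of 32 higher and 9 lower, with a median of 0.12. The desaturase gene Scd2 rose 1.45-fold, and the regulator gene Srebf2 and the sterol carrier gene Stard4 rose 1.22-fold and 1.25-fold.

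**Figure D5:**
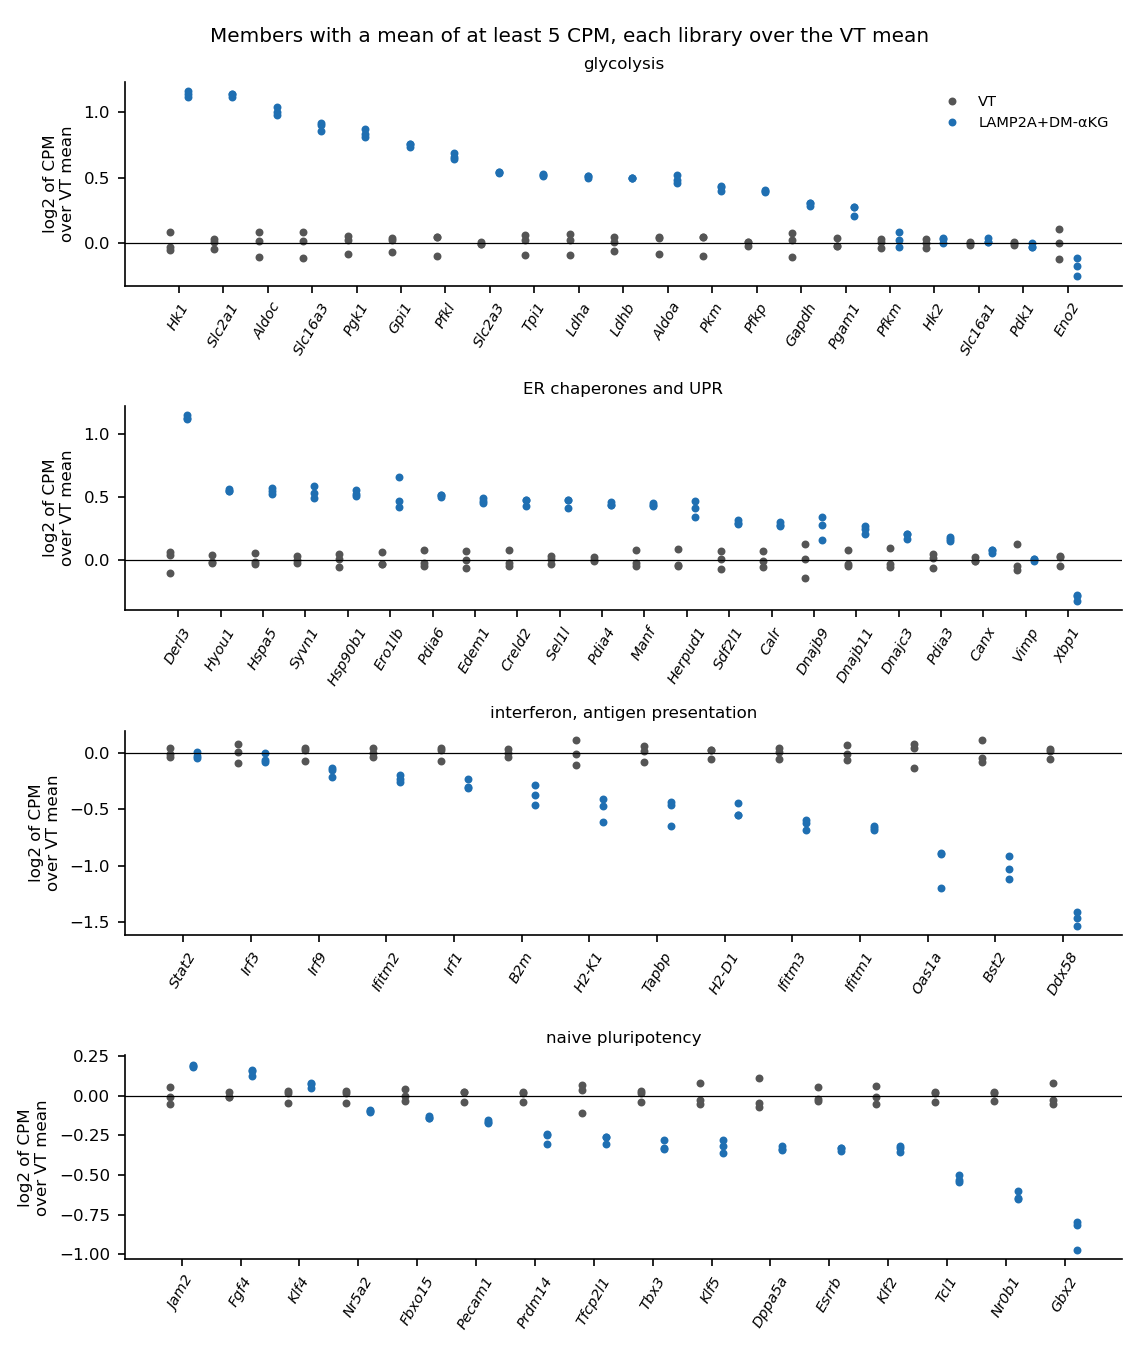
Each library's CPM over the VT mean (log2) for the members drawn from 4 lists, which averaged 5 CPM or more. LAMP2A+DM-αKG libraries lie above VT for most genes of glycolysis and the ER, and below it for most interferon and naive pluripotency genes.

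Interferon and antigen presentation genes were mostly lower at 5 CPM or more. Of 29 tested, 13 were lower, 2 higher and 14 did not pass, with a median log2 fold change of -0.38. The filter on low counts used all 9 libraries, and 11 of the 29 passed it only through untreated LAMP2A. With only the 6 libraries compared, 18 were tested, 13 lower and 0 higher (median -0.44). Of the 15 at that level, 13 were lower and 0 higher. The promoters of Bst2 and Oas1a are shown because these genes fell about 2-fold and hold the letters GAAA repeated with any 2 bases between them, part of the interferon-stimulated response element, in capitals on either strand. They lie at chr8:71537473-71537722 (minus strand) and chr5:120907526-120907775 (minus strand).
Bst2: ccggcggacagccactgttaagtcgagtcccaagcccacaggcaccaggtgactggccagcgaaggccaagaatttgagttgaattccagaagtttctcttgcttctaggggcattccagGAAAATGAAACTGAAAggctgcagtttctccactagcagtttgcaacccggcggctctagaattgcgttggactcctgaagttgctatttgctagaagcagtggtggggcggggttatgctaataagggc
Oas1a: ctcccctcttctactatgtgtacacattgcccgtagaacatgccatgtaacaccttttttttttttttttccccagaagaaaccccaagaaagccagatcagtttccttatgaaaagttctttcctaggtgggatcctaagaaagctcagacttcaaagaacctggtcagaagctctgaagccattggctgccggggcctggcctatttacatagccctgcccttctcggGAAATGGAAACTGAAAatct
The letters were in 10 of the 31 promoters found for the list (32.3%), against 2.98% of all promoters and 2.36% of those of tested genes. Ddx58, the RNA sensor RIG-I (chromosome 4, 40203773–40239828), had 62.5, 66.4 and 65.4 CPM in VT and 23.5, 24.4 and 22.4 CPM in LAMP2A+DM-αKG, and no match in its promoter window. Its fall was 2.77-fold (log2 fold change -1.47, SE 0.045; adjusted p = 2.3e-24, edgeR), while untreated LAMP2A held 78.4 CPM. Bst2, the antiviral protein tetherin, had 29.2, 32.5 and 28.5 CPM in VT and 14.7, 13.9 and 15.9 CPM in treated libraries (2.02-fold lower). Oas1a, an oligoadenylate synthetase gene, fell from 10.6 ± 0.812 to 5.32 ± 0.635 CPM. The membrane protein genes Ifitm3 and Ifitm1 fell 1.55-fold and 1.59-fold, and the MHC class I gene H2-K1 by 0.49 on the log2 scale and its partner B2m by 0.38. The 2 higher genes were barely counted. Gbp2 had 1 count in VT and 12 in LAMP2A+DM-αKG, 11.8 times as many relative to depth (95% counting interval 1.74 to 503). Oasl2 had 3 and 12 counts, a ratio of 3.92 (1.06 to 21.7), and lost its call with DESeq2 (adjusted p = 0.065). All 3 VT counts of Oasl2 were in VT replicate 1: its log2 fold change was 1.85 with all libraries, 5.13 without that library and 1.30 without either other VT library. Untreated LAMP2A held more counts of both, 4578 and 1134.

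Core pluripotency genes were mostly lower. Of 14 tested, 12 were lower, 1 of them at least 2-fold (2.63% of all tested genes), and 1, Fgf4, was higher, with a median log2 fold change of -0.30. Tdgf1, the Nodal co-receptor gene, did not pass, at 1085 ± 30.5 CPM in VT and 1085 ± 4.37 CPM in LAMP2A+DM-αKG. Lin28a, which blocks maturation of let-7 (chromosome 4, 134003330–134018841), moved most. It had 113, 124 and 115 CPM in VT and 54.6, 53.1 and 52.3 CPM in treated libraries, a 2.204-fold fall (SE of the log2 value 0.037; adjusted p = 1.5e-23, edgeR). In untreated LAMP2A Lin28a stood at 226 ± 1.47 CPM, above VT. L1td1 had 1165, 1237 and 1199 CPM in VT and 728, 730.04 and 724 CPM in treated libraries. Dppa2 and Dppa4, partners in early embryonic chromatin, fell 1.59-fold and 1.51-fold, and the ES cell marker Zfp42 by 0.40 on the log2 scale. In bulk RNA fewer cells of a type and less RNA per cell cannot be told apart.

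Naive pluripotency genes mark the ground state of ES cells. Of 16 tested, 13 were lower and 3 higher, with a median log2 fold change of -0.30 and none at 2-fold. Nr0b1, an orphan nuclear receptor gene (chromosome X, 86191764–86195947), had 209, 216 and 217 CPM in VT and 141, 137 and 136 CPM in LAMP2A+DM-αKG (1.55-fold lower). Gbx2, a target of LIF signalling, fell 1.81-fold, Tcl1, an AKT coactivator gene, 1.44-fold and Esrrb, a nuclear receptor gene, 1.26-fold. Jam2, a junction protein gene, and Fgf4 rose by 0.19 and 0.15 on the log2 scale. Klf4 rose by 0.07, which passed narrowly (adjusted p = 0.049, edgeR) and was lost with DESeq2 (adjusted p = 0.069). In untreated LAMP2A these genes were at lower levels still: Nr0b1 at 31.2, Gbx2 at 16.6, Tcl1 at 9.88 and Esrrb at 252 CPM.

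Genes of formative and primed pluripotency, the next stages of the epiblast, did not move in one direction. Of 18 tested, 6 were higher, 9 lower and 3 did not pass, with a median log2 fold change of -0.35. Foxd3 had 52.9, 56.9 and 50.8 CPM in VT and 25.4, 25.5 and 25.5 CPM in LAMP2A+DM-αKG, a 2.102-fold fall. Etv4, a transcription factor gene downstream of FGF, fell 1.47-fold. Otx2 and Zic2, transcription factor genes of the same stages, rose by 0.95 and 0.63 on the log2 scale.

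The chromatin enzymes that use α-ketoglutarate changed little and in both directions. Of 26 tested genes of TET, Jumonji and AlkB enzymes, 10 were higher, 8 lower and 8 did not pass, with a median log2 fold change of 0.05 and none at 2-fold. Tet2, which oxidises methylated cytosine, had 447, 374 and 444 CPM in VT and 278, 263 and 278 CPM in LAMP2A+DM-αKG (log2 fold change -0.63, SE 0.064). Tet1 fell by 0.19 and Tet3 rose by 0.20. The H3K36 demethylase gene Kdm2b and the H3K4 demethylase gene Kdm5b fell 1.54-fold and 1.16-fold. Kdm4b, an H3K9 demethylase gene, and Alkbh5, an eraser of RNA methylation, rose 1.52-fold and 1.37-fold.

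DNA and histone methylation genes had 5 of 22 members higher and 10 lower, with a median log2 fold change of -0.04. The largest fall was that of Dnmt3l, the regulatory partner of the de novo DNA methyltransferases (chromosome 10, 78041947–78063622). It had 326, 335 and 304 CPM in VT and 136, 136 and 145 CPM in LAMP2A+DM-αKG, a 2.31-fold fall (SE of the log2 value 0.035; adjusted p = 5.3e-25, edgeR). Dnmt3a fell 1.94-fold, from 59.7 ± 1.45 to 30.9 ± 1.51 CPM, and Dnmt3b by 0.41 on the log2 scale. Untreated LAMP2A had 137 CPM of Dnmt3l, as in treated cells, but 113 CPM of Dnmt3a. Suv39h1, an H3K9 methyltransferase gene of heterochromatin, went from 28.1, 28.3 and 25.8 CPM in VT to 58.98, 58.6 and 59.1 CPM, a 2.15-fold rise. Ezh1 rose by 0.58 on the log2 scale.

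Germline genes that DNA methylation is known to silence were higher in 13 of 21 cases and lower in 4, with a median log2 fold change of 0.42. The filter was passed only through untreated LAMP2A by 2 of the 21. With only the 6 libraries compared, 12 of 19 were higher and 4 lower. Ddx4, the VASA helicase (chromosome 13, 112598333–112652475), had 19.95, 23.2 and 20.4 CPM in VT and 59.3, 62.1 and 62.2 CPM in LAMP2A+DM-αKG, a 2.89-fold rise. Dazl, an RNA-binding protein gene of germ cells, rose 1.92-fold, the piRNA pathway gene Mael 1.87-fold, and Sycp3, of the synaptonemal complex, by 0.77 on the log2 scale. Rpl10l, a testis ribosomal protein gene, fell 2.59-fold; it is a near copy of another ribosomal protein gene, so its counts are uncertain. Among 31 imprinted genes 15 were higher and 8 lower, with a median of 0.23. The filter was passed only through untreated LAMP2A by 6 of the 31. With only the 6 libraries compared, 15 of 25 were higher and 8 lower (median 0.20). Dlk1 rose 4.17-fold from a low 1.09 ± 0.321 CPM, Gnas rose 1.31-fold, and Rian and Peg3 fell 1.44-fold and 1.47-fold. The level of Peg3 in untreated LAMP2A was 1664 CPM. For Igf2, a growth factor gene, the means were 0.710 CPM in VT, 2.44 CPM in treated libraries and 1762 CPM in untreated LAMP2A.

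Genes of the TCA cycle and of α-ketoglutarate metabolism moved little. Of 39 tested, 16 were higher, 8 lower and 15 did not pass, with a median log2 fold change of 0.05 and none at 2-fold. Idh2, the mitochondrial NADP-dependent isocitrate dehydrogenase, had 272, 284 and 264 CPM in VT and 403, 401 and 412 CPM in treated libraries (1.48-fold). Gpt2, a mitochondrial alanine transaminase gene, and Slc25a1, the citrate carrier, rose 1.49-fold and 1.42-fold. Pdha1, a subunit of pyruvate dehydrogenase, and Bcat1, a branched-chain transaminase gene, fell by 0.32 and 0.35 on the log2 scale. Nuclear genes of oxidative phosphorylation had 7 of 38 higher and 13 lower, with a median of -0.04. Their named members Cox5a, Ndufb3, Ndufs1 and Ndufv1 fell 1.13-fold to 1.19-fold.

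The lysosome and autophagy list had 14 of 36 members higher, 8 lower and 14 that did not pass, with a median log2 fold change of 0.03. Wipi1, an early autophagosome gene, had 13.7, 14.5 and 15.3 CPM in VT and 32.7, 32.2 and 33.4 CPM in LAMP2A+DM-αKG, a 2.25-fold rise. Gabarapl1, a member of the ATG8 family, rose 2.03-fold. The cholesterol exporter gene Npc1 and the cargo receptor gene Sqstm1 rose by 0.50 and 0.31 on the log2 scale. Tfeb and Mitf, transcription factor genes that drive lysosome production, fell 1.64-fold and 1.76-fold, and were lower still in untreated LAMP2A at 9.88 and 5.48 CPM. Of 24 genes of chaperone-mediated autophagy and cytosolic chaperones 8, Lamp2 itself among them, were higher and 9 lower, with a median of 0.02. Hspa8, which encodes HSC70, fell by 0.17 on the log2 scale, Hspa4 and Hspb1 fell 1.28-fold and 1.402-fold, and Bag3 rose 1.44-fold.

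Signalling lists differed in direction. Of 21 genes of the FGF-ERK pathway 11 were lower and 5 higher (3 without LAMP2A+DM-αKG replicate 2), with a median log2 fold change of -0.24. Besides Egr1, the feedback inhibitor gene Spry4 had 170.4, 165 and 172 CPM in VT and 104, 102 and 109.7 CPM in LAMP2A+DM-αKG, a 1.604-fold fall. Etv1 and the ERK phosphatase gene Dusp6 fell by 0.77 and 0.42 on the log2 scale. Among genes of the LIF-STAT3 pathway 7 of 16 were lower and 3 higher, with a median of -0.05. The count of higher genes was 5 without VT replicate 1 and 1 without LAMP2A+DM-αKG replicate 3. It was 6 with library totals in place of TMM factors and 1 with DESeq2. Junb and Klf5 fell 1.82-fold and 1.25-fold. WNT-β-catenin genes had 6 of 23 higher and 7 lower (median -0.05). The filter was passed only through untreated LAMP2A by 6 of the 23. With only the 6 libraries compared, 5 of 17 were higher and 6 lower (median -0.11). The WNT antagonist gene Notum fell 2.55-fold and the receptor gene Fzd7 rose 1.402-fold. Genes of TGF-β, Nodal and BMP signalling had 9 of 24 higher and 9 lower (median 0.05). Lefty2, a Nodal antagonist gene, and Inhbb fell 2.41-fold and 1.35-fold, Bmp4 fell 1.38-fold, and Ctgf and Id2 rose 1.83-fold and 2.34-fold.

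Cell cycle and proliferation genes had 17 of 31 members lower and 4 higher, with a median log2 fold change of -0.11. Myc (chromosome 15, 61985391–61990374) had 37.4, 37.4 and 35.8 CPM in VT and 17.6, 17.2 and 16.4 CPM in LAMP2A+DM-αKG, a 2.16-fold fall (SE of the log2 value 0.052; adjusted p = 4.6e-19, edgeR), and 62.03 CPM in untreated LAMP2A. The cyclin gene Ccnd1 fell 1.67-fold, Ccne1 1.34-fold and the kinase gene Cdk2 1.39-fold. The 4 higher genes were E2f1, Cdkn2a, Cdkn1b and Bub1. Cdkn2a, a locus of CDK inhibitors, rose from 3.19 ± 0.391 to 8.15 ± 0.544 CPM (log2 fold change 1.36, SE 0.103). Targets of p53 had 11 of 23 lower and 4 higher, with a median of -0.10. Perp rose 1.53-fold, while Zmat3, Trp53inp1 and Aen fell 1.24-fold to 1.28-fold.

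Of the lineage lists, endoderm and trophectoderm had larger shares higher than all tested genes, and neural ectoderm did not. The mesoderm share was close to that of all tested genes, but larger with only the 6 libraries compared. Of 27 endoderm genes 15 were higher and 4 lower (median log2 fold change 0.55), and of 19 trophectoderm genes 12 were higher and 3 lower (0.39). Mesoderm had 6 of 20 higher and 4 lower (0.48), and neural ectoderm 4 of 16 higher and 5 lower (0.07), or 7 higher without VT replicate 3. Through untreated LAMP2A alone, 6 of the mesoderm, 4 of the trophectoderm and 3 of the endoderm genes passed the filter on low counts. With only the 6 libraries, 6 of 14 mesoderm, 11 of 15 trophectoderm and 15 of 24 endoderm genes were higher. Over all genes tested that way, 4117 of 13622 were higher. The basement membrane collagen genes Col4a1 and Col4a2, a head-to-head gene pair (chromosome 8, 11198423–11312826 and chromosome 8, 11312805–11449287), rose 2.14-fold and 2.24-fold. Col4a1 had 166, 156 and 162 CPM in VT and 345, 342 and 347 CPM in LAMP2A+DM-αKG, against 984 CPM in untreated LAMP2A. Lama1, of the same matrix, rose by 0.56 on the log2 scale and Gata4 by 0.86. Apoe, the apolipoprotein E gene (chromosome 7, 19696109–19699188), went the other way. It had 525, 538 and 507 CPM in VT and 181, 191 and 173 CPM in treated libraries, a 2.88-fold fall (adjusted p = 1.8e-28, edgeR).

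Besides Krt19, the keratin genes Krt8 and Krt18 rose by 0.39 and 0.57 on the log2 scale. The trophoblast factor genes Dlx3 and Ascl2 rose by 2.51 and 1.57. Their levels were low, 0.501 and 1.72 CPM in VT and 2.85 and 5.13 CPM in LAMP2A+DM-αKG. In the other direction, 3 genes of the trophectoderm list were lower, 1 of them at least 2-fold. The receptor gene Fgfr2 rose 3.29-fold. Eomes, shared with mesoderm, had 10.2, 9.65 and 9.34 CPM in VT and 21.5, 20.9 and 20.5 CPM in LAMP2A+DM-αKG, a 2.15-fold rise. Of the mesoderm genes Pdgfra, Twist1 and Tbx20 rose 2.02-fold, 2.04-fold and 1.42-fold. In the same list 4 genes were lower, 1 of them at least 2-fold. Pdgfra and Twist1 also belong to the list of fibroblast and feeder cell markers. Of the neural genes Sox21 and Tubb3 rose 1.86-fold and 1.44-fold, and Sox1 and Stmn2 fell 1.98-fold and 1.38-fold. Summed over each list, endoderm markers held 2198 to 2314 CPM in VT and 2425 to 2496 CPM in LAMP2A+DM-αKG. Trophectoderm sums were 207 to 211 and 279 to 287 CPM, mesoderm sums 34.3 to 35.5 and 52.5 to 54.9 CPM, and neural sums 359 to 363 and 346 to 352 CPM. In untreated LAMP2A the sums were several times higher for endoderm, 7961 to 8058 CPM, trophectoderm, 1626 to 1651 CPM, and mesoderm, 238 to 245 CPM. The neural sums were higher there too, at 721 to 729 CPM.

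Fibroblast and feeder cell markers had 6 of 22 higher, 3 lower and 13 that did not pass, with a median log2 fold change of 0.26. Of the 22, 9 passed the filter only through untreated LAMP2A. With only the 6 libraries compared, 6 of 13 were higher and 2 lower (median 0.18), against 4117 of 13622 higher over all genes. The sum of the markers was 1475 to 1682 CPM in VT and 2174 to 2260 CPM in LAMP2A+DM-αKG. Most of it was Fn1, fibronectin, at 1169.6 ± 117 and 1708 ± 49.1 CPM, with Vim and Col5a1, which rose 1.203-fold and 1.32-fold. Other markers had few counts. Thy1 and Tagln passed as lower, with 342 and 94 counts over the 3 VT libraries and 204 and 67 over the 3 LAMP2A+DM-αKG libraries. Col3a1 had 7 counts in VT and 45 in LAMP2A+DM-αKG, Col1a2 6 and 17, and Dcn 1 and 6, none of which passed. Nor did Pdgfrb with 264 and 283 counts, Col1a1 with 76 and 77, or Acta2 and Postn with 3 in either group. Untreated LAMP2A had 3197 counts of Col3a1, 128869 of Tagln and 44560 of Acta2. Whether cells of these lineages took part in the changes of other genes was not tested.

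Matrix, adhesion and cytoskeleton genes had 14 of 44 higher and 17 lower, with a median log2 fold change of -0.03. Nidogen 1, Nid1, rose by 0.46 on the log2 scale. Spp1, the secreted protein osteopontin, had 388, 399 and 392 CPM in VT and 261, 264 and 258 CPM in LAMP2A+DM-αKG, a 1.51-fold fall, while Cnn2, an actin-binding calponin gene, and the lamin gene Lmna fell 1.97-fold and 1.65-fold. The level of Cnn2 in untreated LAMP2A was 329 CPM, above VT. Glutamate receptor, synaptic and ion channel genes had 12 of 21 higher and 1 lower, with a median of 0.26. Besides Grin1 and Cacna1h, the metabotropic receptor gene Grm4 rose 2.502-fold and the potassium channel gene Kcnk1 2.31-fold. Grik3, a kainate receptor gene, was the lower one (log2 fold change -0.17). None of the 14 genes listed for the 2-cell-like state passed the filter on low counts.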

How the data were processed

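RNA of 9 libraries was sequenced from a stranded mRNA kit, per the labels' protocols. The authors deposited 1 table of unnormalized whole-number read counts for 24421 gene symbols. Per the submitters' processing notes, mm10, STAR 2.7.1 and HTSeq 0.11.2 were used. Annotation and strand setting: not given in the sources used here. Values of close paralogs and of overlapping or antisense genes are uncertain for that reason. The authors' DESeq2 tables cover other comparisons and were not used.

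The model was edgeR 4.0.16 in R 4.3.3: filterByExpr, TMM factors, and the quasi-likelihood fit (glmQLFit, robust) and test (glmQLFTest) of 1 model of group means over all 9 libraries, with 6 residual degrees of freedom. The contrast was LAMP2A+DM-αKG minus VT, and p-values were adjusted by Benjamini-Hochberg over 14513 tested genes. A gene passed at an adjusted p under 0.05. SE was taken as |log2 fold change| divided by √F. Levels are CPM with TMM factors, as mean ± SD over 3 libraries. On simulated counts of 14310 genes for this comparison, 100 genes were changed at each fold, far fewer than were called in the data. Genes of low counts were not among those changed. Of these changes, 72% at 1.2-fold and 96% at 2-fold were recovered, and 0.0638% of unchanged genes were called. The recovery rates do not cover genes of low counts. Pairs of libraries within a group differed by more than counting noise (chi-square per degree of freedom 1.19 to 5.93), and none were merged. A group of 3 libraries limits the precision. Counting intervals are exact at 95% and cover counting error only.

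The members of the 33 gene lists (804 genes) were chosen with earlier results of these data known. The rule for named genes took Lamp2 with Pou5f1, Nanog and Sox2, then 12 genes at either end of the log2 fold change that passed, did not overlap between the groups and had a mean of at least 5 CPM, leaving out predicted and clone symbols, then the 8 largest gains and losses in CPM, and from each list as many as 4 called members, taken by smallest p. Other genes were named after their values were seen. A few genes that the rule or a count would name, and mitochondrially encoded genes, are not reported or drawn here; list counts and medians include the former. Gene positions are those of GENCODE vM21 (GRCm38, the same assembly as mm10), and promoters those of RefSeq on GRCm38.p6. Alternatives were library totals, upper-quartile factors, DESeq2 1.42.0, limma-voom (limma 3.58.1), no filter, a minimum of 5 CPM, only the 6 libraries, a replicate block, and leaving out each library.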

Additional observations from a re-analysis of the deposited data

How the results depend on the processing

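With a minimum mean of 5 CPM, 129 genes were at least 2-fold higher and 118 at least 2-fold lower, against 570 and 381, because fewer genes were tested. The other settings kept these counts within 1.5 times. DESeq2 called 3801 genes higher and 3797 lower, and 7589 genes were called by both tools, all in the same direction. Library totals without TMM factors gave 4545 higher and 3948 lower, or 53.5% higher among the calls, and moved the median of all genes to 0.02. Leaving out 1 library gave 3891 to 4205 higher and 3848 to 4168 lower genes. With the replicate number as a block, 4253 genes were higher and 4209 lower. Each library's log2 CPM was also taken as a deviation from its group mean, over 10706 genes. These deviations correlated between same-numbered libraries at -0.11 to 0.14 over all 9 pairs. Between VT and LAMP2A+DM-αKG they correlated at -0.01 to 0.14, and 1 of 3 VT libraries correlated best with its own number. The numbers were therefore not taken as pairs. Of the 219 named genes 215 kept their direction and their side of the threshold in each of the 17 settings that tested them. Oasl2 lost its call with DESeq2 and without any 1 library other than VT replicate 1 or LAMP2A replicate 1, and was not tested at 5 CPM or with only the 6 libraries. Klf4 lost its call in 5 settings that kept all libraries of its groups, the block included, and without any 1 library other than VT replicates 2 and 3. Car9 gained one without VT replicate 3. The last was Tdgf1, which had no call and changed sign, with log2 fold changes of -0.0010 with upper-quartile factors, -0.00044 with DESeq2 and -0.017 to 0.025 with 1 library left out. Of 1156 list counts 30 moved by over 1.5 times, 6 of them where the count was at least 5; at a minimum of 5 CPM higher genes were 7 for germline, 7 for trophectoderm, 3 for mesoderm and 3 for WNT-β-catenin, and 3 neural genes were lower; without LAMP2A+DM-αKG replicate 2, 3 FGF-ERK genes were higher. The small spread lets changes of under 1.2-fold pass, as 3705 genes did. With 3 libraries a group and no DM-αKG given to VT cells, neither culture differences nor the separate effects of both treatments can be told apart.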

Other observations

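Glycogen metabolism was listed after Pygl and Ppp1r3b had been seen among the largest rises, so its count supports nothing and is given as values. Of 22 genes tested, 17 were higher in LAMP2A+DM-αKG than in VT, 8 of them at least 2-fold, 0 were lower and 5 did not pass, with a median log2 fold change of 0.52. Pgm2, which interconverts sugar phosphates, had 59.7 ± 2.32 CPM in untreated LAMP2A (SD, n = 3). It had 80.2, 81.6 and 75.3 CPM in VT and 255, 253 and 255 CPM in LAMP2A+DM-αKG. That is a 3.22-fold rise over VT (log2 fold change 1.69, SE 0.034). Pygl had 1.93, 2.03 and 2.01 CPM in VT and 8.92, 8.97 and 8.65 CPM in treated libraries, and Ppp1r3b had 3.25, 3.36 and 3.16 and 14.3, 13.5 and 14.8 CPM. The branching enzyme gene Gbe1 rose by 1.37 on the log2 scale, the phosphorylase kinase gene Phka1 by 1.10 and the glycogen targeting gene Ppp1r3c by 1.69.

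Targets of serum response factor were also listed after Actb and Egr1 had been seen to fall. Of 26 tested, 14 were lower, 5 higher and 7 did not pass, with a median log2 fold change of -0.34. Srf itself fell by 0.42 on the log2 scale, the cofilin gene Cfl1 by 0.48 and the vinculin gene Vcl by 0.47. Zyx, a focal adhesion gene, rose by 0.77, and Fos, an immediate early gene like Egr1, by 0.47.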
